A study of Mus musculus with 8 samples.

Results

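*Cldn5*, *Pecam1*, *Cdh5*, *Flt1*, *Kdr*, *Tek*, *Tie1*, *Pdgfrb* and *Rgs5* are 9 genes of the vessel wall, chosen by name from the 24015 entries of a table of RNA sequencing counts. All 9 were present, all 9 had counts in each of the 8 libraries, and all 9 were among the 15588 genes tested. The libraries were made from brain tissue of C57BL/6N mice at postnatal day 7 (P7). WT mice carried 0 deleted alleles of 1b, a conserved non-coding interval of the sodium channel gene *Scn1a* (n = 2, both male). The 1b+/- mice carried 1 deleted allele (n = 4, 2 males and 2 females) and the 1b-/- mice carried 2 (n = 2, both female). The deletion was made with Cas9, is present in every cell of the animal, and comes from a single line bred to C57BL/6N. No allele or agent is shared by the 3 groups other than the strain. The labels give the tissue as hippocampus, and the study's methods name forebrain at P7.

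Brain capillaries are tubes of endothelial cells wrapped by pericytes. VE-cadherin (*Cdh5*), PECAM-1 (*Pecam1*) and claudin-5 (*Cldn5*) join endothelial cells to each other, and claudin-5 seals the tight junctions of the blood-brain barrier. *Kdr* and *Flt1* encode the endothelial receptors for vascular endothelial growth factor (VEGF), and *Tek* and *Tie1* encode the angiopoietin receptor and its partner. Pericytes respond to platelet-derived growth factor from the endothelium through *Pdgfrb*, and *Rgs5*, a regulator of G protein signalling, is a widely used pericyte marker. The first postnatal weeks are a time of dense capillary growth in the mouse brain. In bulk tissue, fewer cells of a type and less RNA per cell cannot be told apart.

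The 4 growth factor receptors of the endothelium, 2 for VEGF and 2 of the angiopoietin system, are shown by their promoter windows, because each pair is compared in the results. Each window holds 250 bases before and 50 bases after the annotated start, taken from RefSeq on GRCm38.p6 and written 5' to 3' on the strand of the gene. Windows were given for 6 of the 9 genes. Capitals mark matches on either strand to 3 motifs. GGAAGT is a core motif of ETS factors, which include endothelial regulators such as ERG. AGATAA is a motif bound by GATA factors, and TATAAA is the core promoter element known as the TATA box. The motifs did not overlap in these windows. The windows are chr5:147725962-147726261 (minus strand) for *Flt1*, chr5:75978406-75978705 (minus strand) for *Kdr*, chr4:94739039-94739338 (plus strand) for *Tek* and chr4:118489800-118490099 (minus strand) for *Tie1*.
Flt1: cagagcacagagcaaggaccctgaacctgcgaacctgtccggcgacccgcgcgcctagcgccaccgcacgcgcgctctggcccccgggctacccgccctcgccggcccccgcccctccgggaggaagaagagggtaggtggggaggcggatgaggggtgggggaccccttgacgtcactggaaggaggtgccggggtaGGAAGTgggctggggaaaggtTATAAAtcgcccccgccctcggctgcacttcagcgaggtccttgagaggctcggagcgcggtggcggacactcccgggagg
Kdr: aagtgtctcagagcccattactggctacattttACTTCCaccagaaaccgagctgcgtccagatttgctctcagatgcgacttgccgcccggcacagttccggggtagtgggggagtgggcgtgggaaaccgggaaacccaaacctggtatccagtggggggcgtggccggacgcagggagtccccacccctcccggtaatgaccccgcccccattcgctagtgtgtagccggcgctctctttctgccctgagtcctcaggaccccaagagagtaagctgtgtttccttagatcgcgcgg
Tek: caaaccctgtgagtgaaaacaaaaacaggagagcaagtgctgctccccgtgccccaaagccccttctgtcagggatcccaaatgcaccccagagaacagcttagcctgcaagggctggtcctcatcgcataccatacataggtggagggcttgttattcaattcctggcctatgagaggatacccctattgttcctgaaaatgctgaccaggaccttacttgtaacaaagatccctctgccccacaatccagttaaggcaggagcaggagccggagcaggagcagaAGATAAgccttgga
Tie1: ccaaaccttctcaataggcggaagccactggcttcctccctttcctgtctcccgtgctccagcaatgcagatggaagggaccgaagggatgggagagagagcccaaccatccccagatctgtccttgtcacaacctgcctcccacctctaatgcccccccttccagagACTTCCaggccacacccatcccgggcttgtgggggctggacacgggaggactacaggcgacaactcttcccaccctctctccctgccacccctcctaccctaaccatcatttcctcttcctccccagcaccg

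GGAAGT or its reverse complement was present in 3 of the 6 windows (*Flt1*, *Kdr* and *Tie1*), against 23.8% of all 32851 windows of this length. The first base of the match lay at -52 in *Flt1*, -217 in *Kdr* and -82 in *Tie1*, counted from the annotated start. AGATAA was present in *Tek*, at 37, and in *Rgs5*, at -238 (11.2% of all windows). TATAAA was present only in *Flt1*, at -31 (13.6% of all windows). The VEGF receptors thus shared GGAAGT, with TATAAA in *Flt1* alone, while *Tie1* held GGAAGT and *Tek* held AGATAA. The *Flt1* window was 70.7% G or C, against 60.7% in *Kdr*, 60.3% in *Tie1*, 52.0% in *Tek* and a median of 52.7% over all windows. A match describes letters only, and binding was not measured.

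In mm9, the build to which the reads were aligned, *Cldn5* lies on chromosome 16 (18776940 to 18778353, plus strand) and *Cdh5* on chromosome 8 (106625525 to 106668402, plus strand). *Pecam1* lies on chromosome 11 (106515531 to 106611942, minus strand). *Flt1* (148373180 to 148537587) and *Kdr* (76328852 to 76374483) both lie on the minus strand of chromosome 5. *Tek* (94405980 to 94541667, plus strand) and *Tie1* (118143796 to 118162666, minus strand) both lie on chromosome 4, and *Rgs5* lies on chromosome 1 (171585632 to 171625944, plus strand). Of these 8 genes, only *Pecam1* overlapped another annotated gene, a small nucleolar RNA on the opposite strand. Counts were summed over transcripts (5 annotated for *Flt1*, 1 for *Cldn5* and 1 for *Cdh5*). They therefore do not separate membrane-bound from soluble forms of the *Flt1* receptor, which acts as a trap for VEGF.

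Library totals ranged from 2947770 to 20878772 counts, and the 9 genes together held 1275 to 7407 counts of a library. The lowest single count was 45 (*Tie1* in 1b-/- replicate 2). *Scn1a*, the targeted gene, was 45.2 and 40.5 CPM (the count relative to the library total, scaled by TMM) in WT, 15.7 to 26.7 in 1b+/- and 3.18 and 2.0 in 1b-/-, so it followed the genotype labels. Several libraries stood apart in other tissues. The 10 epithelial genes summed to 270 CPM in WT replicate 1 and 65.3 in WT replicate 2, against 6.40 to 12.9 in the other 6. In 1b+/- replicate 1, 12 genes of the thalamus, midbrain and hindbrain summed to 220 CPM (50.1 to 192 elsewhere) and 12 forebrain genes to 1671 CPM, the lowest of the 8 (2023 to 3436 elsewhere). All 12 forebrain genes and, except for 1 gene in WT replicate 2, all 10 hippocampal genes had counts in every library. The red cell globins *Hba-a1*, *Hba-a2*, *Hbb-b1* and *Hbb-b2* were at 0 in all 8, so blood content could not be read from them.

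Levels of different genes were compared per kilobase of annotated exon. *Cldn5* had the highest level, with 19.3 ± 6.65 CPM per kb (SD over the 8 libraries). *Rgs5* followed with 13.1 ± 3.17 CPM per kb, *Cdh5* with 13.04 ± 2.79, *Kdr* with 10.7 ± 2.28 and *Pecam1* with 10.6 ± 1.52. *Tek* was at 5.85 ± 1.599 CPM per kb, *Pdgfrb* at 5.81 ± 1.25, *Flt1* at 3.27 ± 0.448 and *Tie1* at 2.40 ± 0.838. The mean levels formed 3 tiers, of which the lower 2 overlapped in range. *Tie1* reached 4.41 CPM per kb in 1b+/- replicate 4, and *Tek* fell to 4.25 in 1b-/- replicate 2. The ranges of *Pecam1* and *Tek* did not overlap, nor did those of *Pdgfrb* and *Flt1*, and the upper gene lay above the lower in 8 of 8 libraries for both pairs. Other neighbours in this order overlapped. *Rgs5* lay above *Cdh5* in 3 of 8 libraries and *Tek* above *Pdgfrb* in 4 of 8, so neither pair could be ordered, whereas *Cldn5* lay above *Rgs5* in 6 of 8 and *Flt1* above *Tie1* in 7 of 8. These levels depend on the annotated length, which for *Flt1* (11583 bp) is the sum of all its annotated exons.

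**Figure D1:**
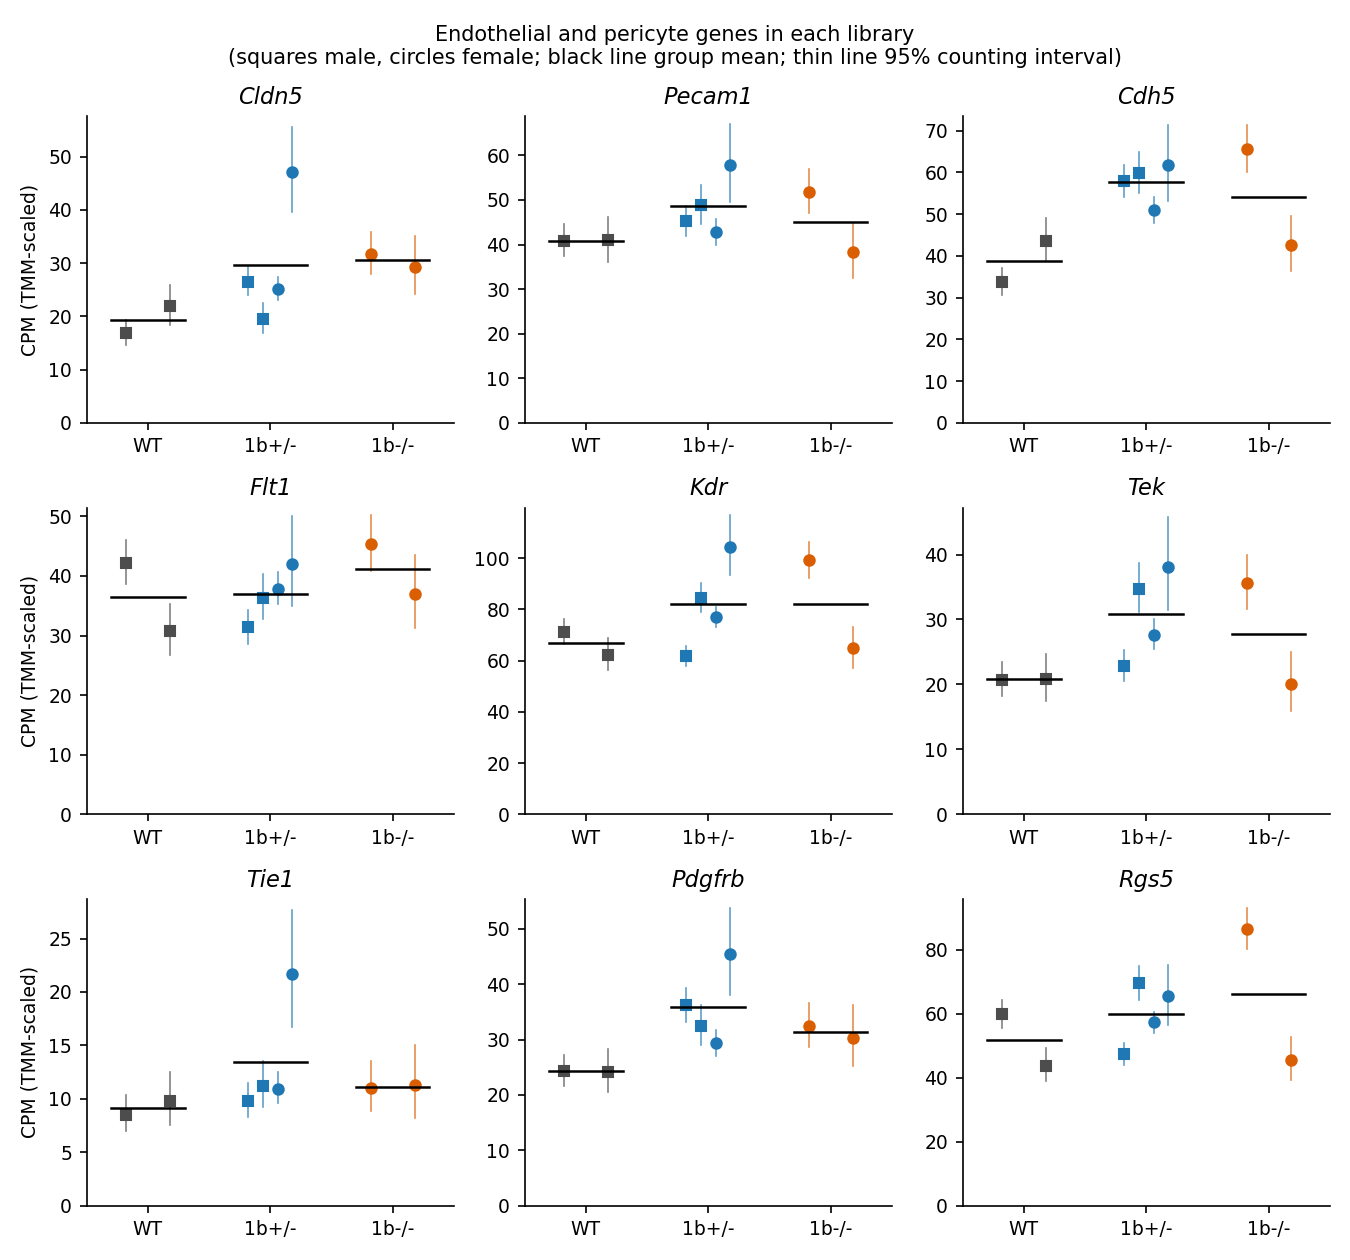
TMM-scaled CPM (vertical axis, from 0) of each of the 9 genes in each library, by genotype (horizontal axis), with squares for males, circles for females, black lines for group means and thin lines for 95% intervals of the counting error alone. The 1b+/- library with the highest *Cldn5* (47.1 CPM) and *Tie1* (21.7 CPM) is 1b+/- replicate 4, and WT libraries lie low for most genes.

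The junction genes were compared first. *Cldn5* was at 16.9 and 21.9 CPM in WT, at 26.5, 19.5, 25.2 and 47.1 in 1b+/- (replicates 1 to 4), and at 31.7 and 29.3 in 1b-/-. Both 1b-/- libraries lay above both WT libraries, while 1b+/- overlapped WT through replicate 2. *Cdh5* was at 33.7 and 43.7 CPM in WT, at 57.9, 59.8, 50.9 and 61.8 in 1b+/-, and at 65.6 and 42.6 in 1b-/-. All 4 1b+/- libraries were above both WT libraries, and the 1b-/- libraries lay on either side of them. *Pecam1* was nearly equal in the WT libraries (40.9 and 40.9 CPM) and was 45.2, 48.9, 42.8 and 57.8 in 1b+/- and 51.8 and 38.3 in 1b-/-. The 1b+/- libraries again lay above WT without overlap, and one 1b-/- library lay above and the other below.

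The VEGF receptors overlapped between all 3 genotypes. *Kdr*, the main signalling receptor, was at 71.2 and 62.4 CPM in WT, at 61.8, 84.5, 76.9 and 104 in 1b+/-, and at 99.2 and 64.8 in 1b-/-. *Flt1* was at 42.2 and 30.8 CPM in WT, at 31.4, 36.4, 37.9 and 42.1 in 1b+/-, and at 45.4 and 37.0 in 1b-/-. *Flt1* varied least of the 9, with a highest level 1.48 times the lowest, against 2.79 times for *Cldn5*. The ratio of *Kdr* to *Flt1* CPM ranged from 1.68 to 2.48 and *Kdr* was the more abundant in all 8 libraries.

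Of the angiopoietin receptors, *Tek* was at 20.8 and 20.8 CPM in WT, at 22.8, 34.7, 27.7 and 38.1 in 1b+/-, and at 35.6 and 20.0 in 1b-/-. The 4 1b+/- libraries lay above WT without overlap, and the 2 1b-/- libraries held the second highest level and the lowest of the 8. *Tie1* was at 8.52 and 9.81 CPM in WT, at 9.77, 11.2, 10.9 and 21.7 in 1b+/-, and at 11.02 and 11.27 in 1b-/-. Apart from 1b+/- replicate 4, *Tie1* lay between 8.52 and 11.3 CPM in every library. The value of 21.7 CPM rested on 65 counts, with a 95% counting interval (exact Poisson) of 16.8 to 27.7 CPM that excludes the level of each of the other 7 libraries. Counting intervals do not cover the variation between animals. The ratio of *Tek* to *Tie1* CPM ranged from 1.75 in 1b+/- replicate 4 to 3.23 in 1b-/- replicate 1.

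The pericyte genes differed in their pattern. *Pdgfrb* was at 24.3 and 24.2 CPM in WT, at 36.2, 32.5, 29.4 and 45.4 in 1b+/-, and at 32.4 and 30.3 in 1b-/-. It was the only one of the 9 genes for which both the 1b+/- and the 1b-/- libraries lay entirely above WT. Among 25 other endothelial and 14 other pericyte genes, the same held for the endothelial *Esam*, *Eng*, *Clec14a* and *Ecscr* and the pericyte gene *Mcam*. It held for no other gene of these lists, such as the endothelial *Cd93* or the pericyte gene *Vtn*. These genes are named after their values were seen. Taken alone, the 1b+/- libraries lay above WT for 5 of the 25 and 3 of the 14 (6.4% of all genes). The 1b-/- libraries did so for 8 of the 25 and 2 of the 14 (11.6% of all genes). The share of all genes with both was not determined. *Rgs5* was at 60.0 and 43.8 CPM in WT, at 47.4, 69.5, 57.3 and 65.4 in 1b+/-, and at 86.5 and 45.6 in 1b-/-, and its groups overlapped throughout. The ratio of *Rgs5* to *Pdgfrb* CPM ranged from 1.31 in 1b+/- replicate 1 to 2.67 in 1b-/- replicate 1.

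Between 1b+/- and WT, 0 of the 9 genes passed the threshold of an adjusted p under 0.05, by the quasi-likelihood test of edgeR with Benjamini-Hochberg adjustment over all genes (0.0834% of all 15588 genes passed it). The adjusted p was 0.9999 for each of the 9. Fitted log2 fold changes were above 0 for 8 genes, with a median of 0.48, against a median of 0.01 and a share of 52.1% above 0 over all genes tested. The largest were those of *Cdh5* (0.57, 95% interval 0.15 to 1.001), *Cldn5* (0.57, -0.08 to 1.22), *Tek* (0.55, -0.01 to 1.11) and *Pdgfrb* (0.55, 0.13 to 0.96). *Flt1* was fitted at 0.00 (-0.40 to 0.40). At an unadjusted p under 0.05 there were 2 of the 9 (*Cdh5* 0.0126 and *Pdgfrb* 0.0149, edgeR), where 4.34% of all genes had such a p. This number of members was 4 without a filter (960 genes in all) and by DESeq2 (552), and 3 by the likelihood ratio test (761). Without WT replicate 1, and without both WT replicate 1 and 1b+/- replicate 1, this number was 0 of the 9, and without WT replicate 2 it was 1. The 4 genes *Pecam1*, *Cdh5*, *Tek* and *Pdgfrb* were higher in 1b+/- without overlap, as were 6.4% of all genes. Without 1b+/- replicate 1, 2, 3 or 4 the number was 6, 5, 4 and 4 (8.8%, 11.3%, 9.14% and 10.3% of all genes). Without WT replicate 1 it was 6 (16.2% of all genes). Without WT replicate 2, 6 members were higher and 1, *Flt1*, was lower (18.4% and 19.3% of all genes). Without both WT replicate 1 and 1b+/- replicate 1, the libraries highest in epithelial and in meningeal genes, 8 of 9 were higher (20.8% of all genes). The median log2 fold change was then 0.50. This omission was chosen after seeing the data and left WT replicate 2 as the only WT library. WT replicate 2 had the lowest summed level of the members in any library (298 CPM). The omitted 1b+/- replicate 1 had the lowest in 1b+/- (339 CPM). The median log2 fold change was 0.20 with sex as a covariate, 0.21 in males alone and 0.22 without 1b+/- replicate 4, with 0 members past the threshold in each. The likelihood ratio test of edgeR and DESeq2 also called 0 of the 9.

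Between 1b-/- and WT, the threshold was likewise passed by 0 of the 9 (adjusted p 1.0 for each, edgeR, while 0.00642% of all genes passed). Fitted log2 fold changes were above 0 for all 9 genes, with a median of 0.36 against 48.9% above 0 and a median of -0.01 over all genes. *Cldn5* had the largest (0.67, 95% interval -0.07 to 1.40), followed by *Cdh5* (0.50, 0.01 to 0.99) and *Tek* (0.44, -0.20 to 1.08), and *Pecam1* had the smallest (0.15, -0.30 to 0.59). *Cdh5* was the only member with an unadjusted p under 0.05 (0.0446), against 1.64% of all genes. The following counts are from fits that kept all WT and 1b-/- libraries. No member had one (0 of 9) with sex as a covariate (412 genes in all), without 1b+/- replicate 1 (264) or without 1b+/- replicate 3 (199). Without 1b+/- replicate 2 and without a filter there were 2 (301 and 374 genes in all). The log2 fold change of *Cdh5* was 0.14 without 1b-/- replicate 1 and 0.77 without 1b-/- replicate 2, so its size depended on the 1b-/- library kept. *Cldn5*, *Tie1* and *Pdgfrb* were higher in 1b-/- without overlap, as were 11.6% of all genes. Without WT replicate 1 this held for 6 members (24.8% of all genes), and without 1b-/- replicate 2 for all 9 (31.1%). Without 1b-/- replicate 1, 3 members were higher and 2 lower (35.6% and 35.8% of all genes). Genotype and sex cannot be told apart in this comparison, because WT animals were male and 1b-/- animals female, and with sex as a covariate the median was 0.07. The median was 0.01 without 1b-/- replicate 1, with 5 of 9 genes above 0, and 0.57 without 1b-/- replicate 2. Both comparisons with WT used the same 2 WT libraries.

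In 1b-/- against 1b+/-, no gene of the 9 passed the threshold (adjusted p 1.0 for each, edgeR, with 0.00642% of all genes called). Fitted log2 fold changes were between -0.20 (*Tie1*, 95% interval -0.86 to 0.47) and 0.18 (*Flt1*, -0.23 to 0.58). Their median was -0.07, and 4 of 9 were above 0 (49% of all genes). No member differed without overlap, against 3.41% of all genes higher and 3.98% lower. An unadjusted p under 0.05 was found for 0 of the 9, against 1.23% of all genes. The direction of the median depended on the 1b-/- library. Without 1b-/- replicate 1 the median was -0.33, and without 1b-/- replicate 2 it was 0.19.

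**Figure D2:**
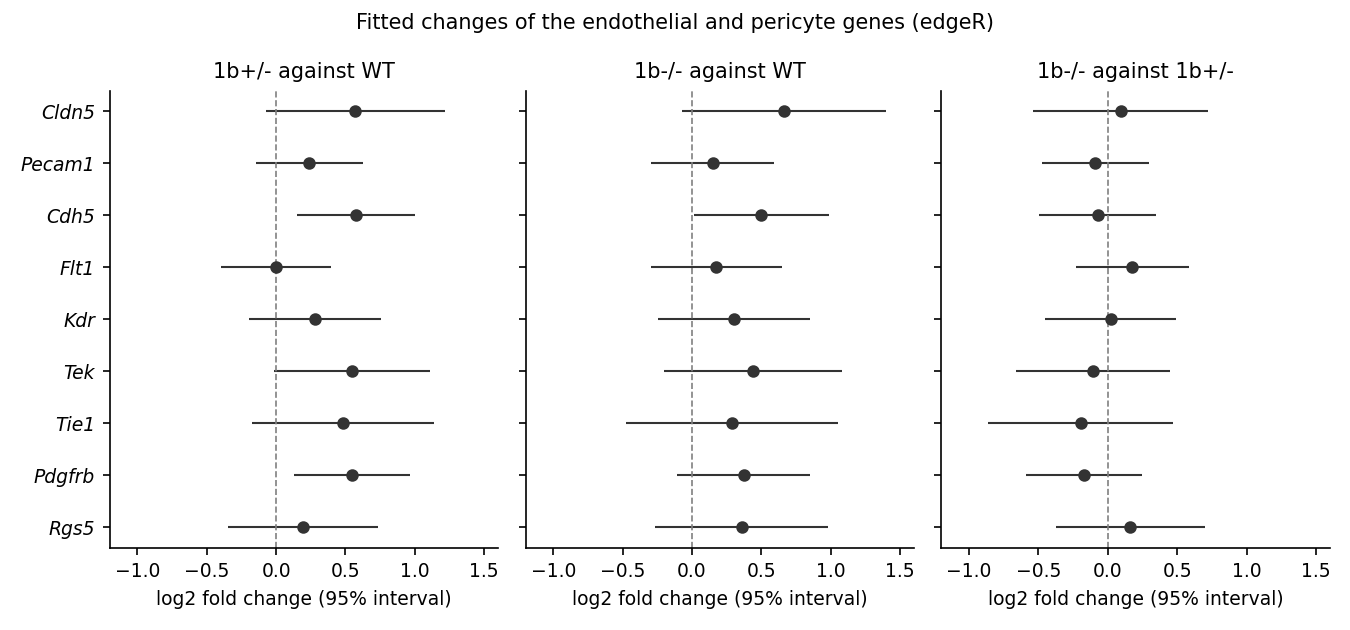
Fitted log2 fold changes (horizontal axis) of the 9 genes (vertical axis) in the 3 comparisons of genotypes, as points with 95% intervals from edgeR. In 1b+/- against WT the intervals of *Cdh5* and *Pdgfrb* lie above 0, in 1b-/- against WT that of *Cdh5*, and in 1b-/- against 1b+/- all 9 include 0. None of these differences passed the threshold after adjustment.

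Females and males were compared within 1b+/-, where both were present. No member passed the threshold (adjusted p 0.9999 for each, edgeR, against 0.0321% of all genes called), and 0 had an unadjusted p under 0.05 (2.66% of all genes). *Cldn5* was fitted at 0.60 higher in females on the log2 scale (95% interval -0.06 to 1.26) and *Tie1* at 0.57 (-0.14 to 1.27). *Flt1* was the only member higher in females without overlap (12.1% of all genes). The median was 0.17 with 8 of 9 genes above 0 (49.3% of all genes), and without 1b+/- replicate 4, a female, it was -0.03 with 4 above 0.

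The highest levels fell in 2 libraries of different genotypes. Of the 9 genes, 6, *Cldn5*, *Pecam1*, *Kdr*, *Tek*, *Tie1* and *Pdgfrb*, were highest in 1b+/- replicate 4, and the other 3, *Cdh5*, *Flt1* and *Rgs5*, were highest in 1b-/- replicate 1. Every member lay above its own mean log2 level in 1b+/- replicate 4 (9 of 9), as did 8 of 9 in 1b-/- replicate 1. In WT replicate 2 none did (0 of 9), in 1b-/- replicate 2 there was 1, and in WT replicate 1 there were 2. Summed over the 9 genes, the level was 318 and 298 CPM in WT, 339, 397, 359 and 484 in 1b+/-, and 459 and 319 in 1b-/-. 1b+/- replicate 4 (484 CPM) was the shallowest of the 8 libraries and 1b-/- replicate 2 (319 CPM) the next shallowest. The part of depth in these sums was not tested.

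**Figure D3:**
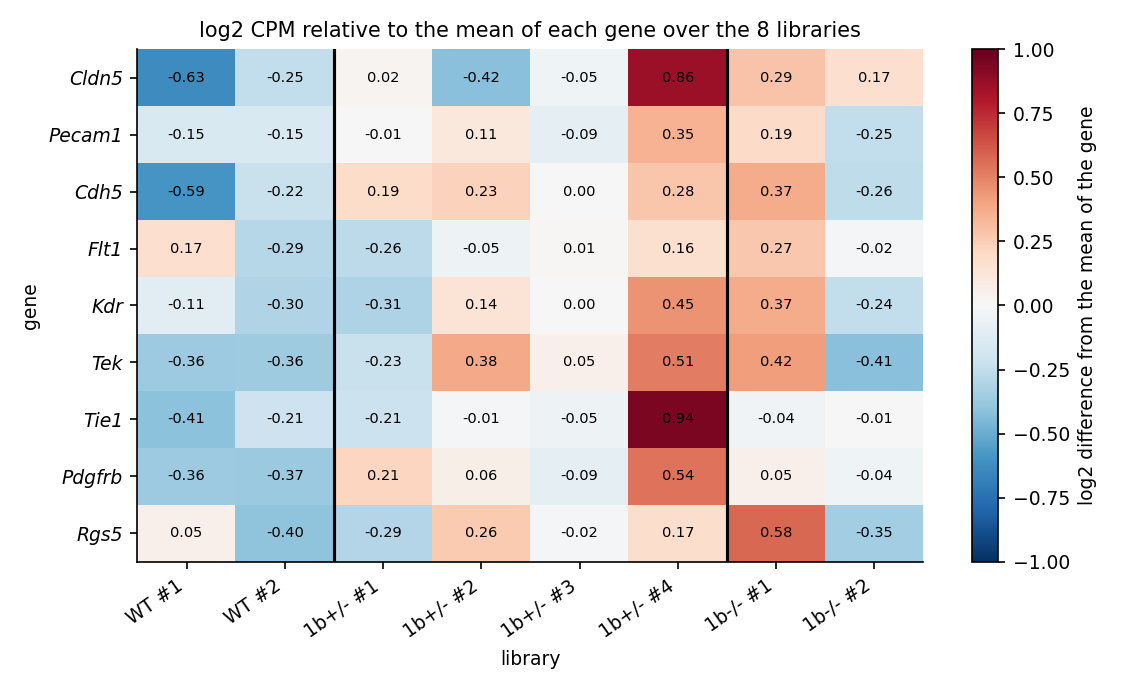
Difference of log2 CPM from the mean of each gene (colour and printed value) for the 9 genes (rows) in the 8 libraries (columns, # marks the replicate), with black lines between WT, 1b+/- and 1b-/-. The column of 1b+/- replicate 4 is above 0 for 9 of 9 genes, and the 2 1b-/- libraries differ from each other.

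Pairs of the 9 genes followed each other to different degrees over the 8 libraries. As a description, Pearson's r of log2 CPM was highest for *Kdr* with *Tek* (0.93) and *Pecam1* with *Tek* (0.92), followed by *Kdr* with *Rgs5* (0.88). It was lowest for *Cdh5* with *Flt1* (0.12). The pericyte genes *Pdgfrb* and *Rgs5* had an r of only 0.32, while *Pdgfrb* followed *Tie1* (0.82) and *Cldn5* (0.81). These points share the libraries, their depth and their tissue content, and 8 libraries of 3 genotypes give no more than an ordering. The genes most like the mean of the standardized members, out of 11221 other genes with at least 5 CPM, were *Flt4* (r = 0.98), which encodes a further VEGF receptor, *Lamb1* (0.97), a laminin chain of basement membranes, *Stard13* (0.96), *Aplnr* (0.95), the apelin receptor, and *Zfp568* (0.94). *Flt4*, for example, was at 4.88 and 4.597 CPM in WT, at 6.14, 7.07, 5.96 and 9.68 in 1b+/-, and at 8.94 and 4.76 in 1b-/-. It was highest in the same 2 libraries as the members.

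A list of 25 other endothelial genes was set beside the members. In 1b+/- against WT 24 of 25 were fitted above 0 (median log2 fold change 0.37) and in 1b-/- against WT 25 of 25 (median 0.32), with 0 past the threshold in either. *Cd93*, an endothelial membrane protein, was the most abundant, with 101 ± 5.23 CPM in WT (SD, n = 2), 123 ± 38.2 in 1b+/- (SD, n = 4) and 145 ± 64.1 in 1b-/- (SD, n = 2). *Itm2a* was at 48.3 ± 6.62, 65.8 ± 9.02 and 61.7 ± 12.6 CPM in the same order. Of the 25, 9 were highest in 1b-/- replicate 1 and 8 in 1b+/- replicate 4.

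Genes of the blood-brain barrier, 17 transporters, junction proteins and Wnt targets, had lower medians (0.15 for 1b+/- and 0.14 for 1b-/-, each relative to WT), with 12 of 17 fitted above 0 in each and 0 past the threshold. *Apcdd1*, a Wnt target, was at 70.3 ± 11.7, 89.7 ± 26.8 and 77.8 ± 6.83 CPM in WT, 1b+/- and 1b-/-, and the amino acid transporter *Slc7a5* was at 72.1 ± 12.9, 77.4 ± 18.3 and 81.9 ± 11.3. Both were highest in 1b+/- replicate 4. *Slco1a4*, an organic anion transporter named after its values were seen, was fitted at -1.46 on the log2 scale (SE 0.31) in 1b+/- against WT, opposite in direction to the members (unadjusted p 5.53e-04, edgeR adjusted p 0.294).

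Of 14 other pericyte genes, 11 were fitted above 0 in 1b+/- against WT (median 0.29) and 10 in 1b-/- against WT (median 0.20), with 0 past the threshold. *Vtn*, which encodes vitronectin, was at 41.7 ± 20.5, 60.1 ± 12.8 and 51.2 ± 1.16 CPM in WT, 1b+/- and 1b-/-. *Abcc9*, a subunit of a pericyte potassium channel, was at 47.8 ± 1.90, 43.4 ± 6.63 and 49.4 ± 11.04 CPM. *Vtn* thus had the order of *Pdgfrb* and *Abcc9* did not, and neither difference passed the threshold. Of 10 arterial smooth muscle genes 9 were fitted above 0 in 1b+/- against WT (median 0.45), again with 0 past the threshold. The most abundant were *Mylk*, at 17.3 ± 0.191, 18.6 ± 2.67 and 21.9 ± 3.68 CPM, and *Acta2*, at 5.97 ± 4.12, 8.11 ± 2.30 and 7.75 ± 1.44.

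Of 17 ligands and partners of the receptors, 12 were fitted above 0 in 1b+/- against WT (median 0.22) and 10 in 1b-/- against WT (median 0.14), with 0 past the threshold. *Vegfa*, the ligand of *Kdr* and *Flt1*, was at 43.7 ± 0.273 CPM in WT, 49.8 ± 4.23 in 1b+/- and 48.2 ± 4.09 in 1b-/-. *Angpt1*, the activating ligand of *Tek*, was at 53.3 ± 1.24, 45.4 ± 10.4 and 57.1 ± 9.52 CPM, and *Angpt2* was at 7.21 ± 1.07, 11.1 ± 4.14 and 8.05 ± 0.0480. *Pdgfb*, the ligand of *Pdgfrb*, was at 5.61 ± 0.0919, 6.59 ± 1.61 and 7.19 ± 1.16 CPM. These 4 ligands are named for their receptors, outside the rule on abundance, and none of the 4 passed the threshold. The most abundant of the 17 were the coreceptors *Nrp1* and *Nrp2*, which also serve semaphorin signalling in neurons. *Nrp1* was at 492 ± 40.1, 350 ± 75.8 and 376 ± 0.952 CPM, and its fitted difference between 1b+/- and WT was -0.49 on the log2 scale (SE 0.19, adjusted p 0.9999 by edgeR). *Nrp2* was at 317 ± 64.4, 238 ± 41.8 and 310 ± 92.5 CPM.

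Markers of other tissues differed between libraries as well. The 14 meningeal fibroblast genes were fitted above 0 in 1b+/- against WT for 14 of 14 (median log2 fold change 0.76) and in 1b-/- against WT for 14 of 14 (median 0.27), with 0 past the threshold. Their sum was 663 and 1161 CPM in WT, 2306, 1376, 1023 and 1080 in 1b+/-, and 1291 and 816 in 1b-/-, and all 14 had counts in every library. The library with the highest meningeal sum, 1b+/- replicate 1, held the lowest 1b+/- sum of the members (339 CPM). There, 10 of the 14 meningeal genes but 0 of the 9 members were highest. In other libraries the 2 sums went together. WT replicate 1 had the lowest meningeal sum (12 of 14 genes lowest) and a low sum of the members (318 CPM). Within 1b-/-, replicate 1 was above replicate 2 in both (members 459 against 319 CPM). *Col3a1* was at 209 ± 65.4, 339 ± 102 and 235 ± 85.7 CPM in WT, 1b+/- and 1b-/-, and *Igf2* at 294 ± 157.5, 336 ± 78.9 and 310 ± 88.6. The 13 choroid plexus genes summed to 1015 and 1073 CPM in WT, 246, 36.1, 200 and 1009 in 1b+/-, and 450 and 888 in 1b-/-. *Ttr*, the most abundant of them, ranged from 6.77 to 938 CPM and *Clic6* from 3.03 to 32.6. Choroid plexus genes were high in 1b+/- replicate 4, where the members were highest, and also in WT, where the members were low. The 11 microglia genes summed to 64.9 to 101 CPM, with 9 of 11 fitted above 0 in 1b+/- against WT (median 0.28), and *Csf1r* and *P2ry12* ranged from 11.7 to 19.3 and from 10.3 to 17.3 CPM. The epithelial list, like the others, was chosen with earlier results of these data known, so its calls are a description and not independent evidence. All 10 epithelial genes passed the threshold in 1b+/- against WT, and were lower in 1b+/- (*Mal*, *Krt15*, *Krt13*, *Scel*, *Krt8*, *Krt19*, *Upk1b*, *Msln*, *Krt6a* and *Upk3b*, median log2 fold change -4.40, edgeR adjusted p 0.00608 to 0.0317). Among platelet genes, *Pf4* (log2 fold change 0.83 in 1b+/- against WT) and *Itga2b* (-0.29) were not called. Both are named outside the rule, after their values were seen. The platelet gene *Ppbp* was called lower (27.9 ± 24.3 CPM in WT and 0.568 ± 0.497 in 1b+/-). These calls were lost without WT replicate 1, without 1b+/- replicate 3, with sex as a covariate and in males alone, where 0 genes of the whole table passed (308, 767, 867 and 657 at an unadjusted p under 0.05, edgeR). The red cell gene *Alas2* ranged from 26.8 to 74.4 CPM. Regional markers ranged from 915 to 2040 CPM for *Neurod6*, 297 to 452 for *Mpped1*, 46.5 to 89.5 for *Zbtb20*, 8.68 to 118 for *Tcf7l2* and 20.99 to 68.24 for *Rora*. The part of these tissues in the values of the members was not tested.

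**Figure D4:**
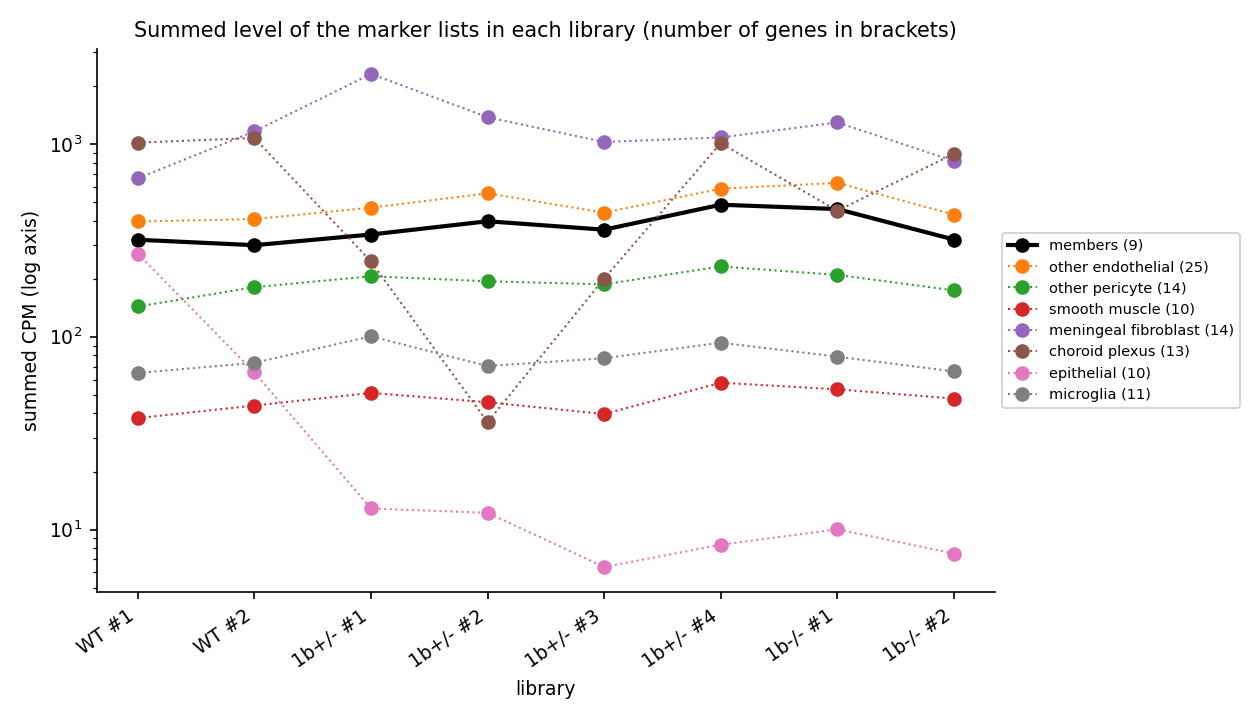
Summed CPM (vertical axis, log scale) of the 9 members (black) and of 7 marker lists (colours, number of genes in brackets) in the 8 libraries (horizontal axis, # marks the replicate). The members range from 298 to 484 CPM, whereas choroid plexus genes range from 36.1 to 1073 and epithelial genes from 6.40 to 270. The choroid plexus and epithelial genes do not follow the order of libraries of the members.

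**Figure D5:**
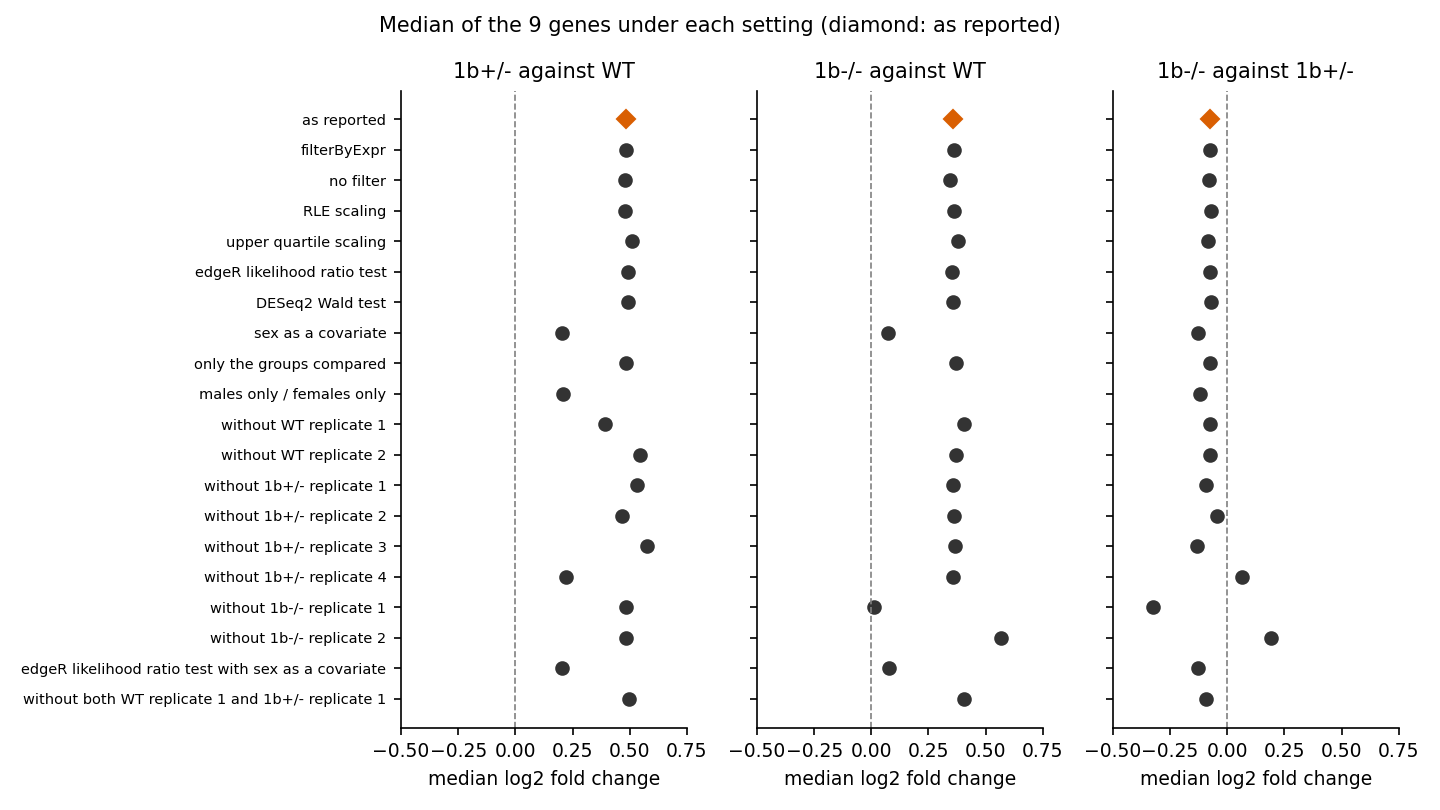
Median log2 fold change of the 9 genes (horizontal axis) in the 3 comparisons under each setting of the analysis (vertical axis), with a diamond for the value as reported. The medians of 1b+/- against WT lie between 0.20 and 0.58, those of 1b-/- against WT between 0.01 and 0.57, and those of 1b-/- against 1b+/- between -0.33 and 0.19.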

How the data were processed

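According to the labels and methods, stranded mRNA libraries were read from a single end. The authors aligned reads to mm9 with STAR 2.7.2 and deposited unnormalized counts per gene symbol from featureCounts. Which annotation and strand setting were used, and how multi-mapping reads were counted, is not given in the sources used here. All 8 columns were used, and no symbol was missing for any list.

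In R 4.3.3, the 15588 genes that reached 1 CPM in any library were scaled by TMM. Tests were quasi-likelihood fits in edgeR 4.0.16, with genotype as the only factor and all 8 libraries in 1 fit. P-values were adjusted over all genes (threshold 0.05). Intervals of fold changes used the standard error and degrees of freedom of that fit. Female and male 1b+/- libraries were compared in a fit with 4 groups. The test was checked on simulated data with 200 changed genes. The methods of the study count the libraries of each genotype as mice, so p-values measure the spread between animals.

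Exon lengths and mm9 positions came from GENCODE M1. Promoters came from RefSeq (GRCm38.p6). The members and all lists were chosen with earlier results of these data known. Besides the members, the 2 most abundant genes of each list were named, with any gene past the threshold, *Scn1a*, and the 5 genes most like the mean of the members (at least 5 CPM). Other genes are said to be named outside the rule. Some genes that the rule would name are not reported here. The alternatives changed the filter (filterByExpr or none), the scaling (RLE or upper quartile), the test (likelihood ratio or DESeq2 1.42.0), the covariates (sex) or the libraries (only the groups compared, a single sex, or all but one). A sex-adjusted likelihood ratio test and omission of both WT replicate 1 and 1b+/- replicate 1 were chosen after seeing the data. Intervals on counts cover counting error only.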

Additional observations from a re-analysis of the deposited data

Results flagged for a closer look

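*Tie1* in 1b+/- was the only 1 of 10 measures (the 9 genes and their sum) in which a library stood apart from the other 3 of its group. The gap between 1b+/- replicate 4 (21.7 CPM) and its nearest neighbour (11.2 CPM) was 0.879 of the range of the group, above Dixon's 95% critical value for 4 libraries. The next largest gap was that of *Cldn5* (0.747), also through 1b+/- replicate 4. Chance flags about 1 in 20 groups. Without that library the log2 fold change of *Tie1* in 1b+/- against WT was 0.22, against 0.48 with it.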

How the results depend on the processing

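No member passed the threshold under any alternative in any of the 4 comparisons, and the median log2 fold change of the members stayed above 0 in both comparisons with WT. In 1b+/- against WT, the number of genes called over the whole table (13) was 57 without a filter, 64 by the likelihood ratio test, 24 by DESeq2, 0 with sex as a covariate (867 at an unadjusted p under 0.05, edgeR) and 0 in males alone (657 unadjusted, edgeR). In 1b-/- against WT (1) it was 33 without a filter, 23 by the likelihood ratio test, 13 by DESeq2 and 15 with only the groups compared. In females against males within 1b+/- (5) it was 85, 20 and 14 without a filter, by the likelihood ratio test and by DESeq2. Of the settings chosen after seeing the data, the sex-adjusted likelihood ratio test called 107 genes in 1b+/- against WT, with 5 in 1b-/- against WT, and omission of both WT replicate 1 and 1b+/- replicate 1 left 0 in 1b+/- against WT (314 unadjusted, edgeR). Leaving out 1 library at a time gave 0 (without WT replicate 1 or 1b+/- replicate 3) to 30 (without WT replicate 2) in 1b+/- against WT, with 7 without 1b+/- replicate 1 and 4 without 1b+/- replicate 4. It gave 1 to 16 (without WT replicate 2) in 1b-/- against WT, 0 (without either 1b-/- replicate) to 1 in 1b-/- against 1b+/-, and 5 to 46 (without 1b+/- replicate 2) in females against males. Where 1 library of a group remained, it was assumed to vary like the other groups. The cause of these differences was not tested.

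No paired analysis was possible because replicates were numbered in accession order, which pairs no animals. The main limits are 2 WT and 2 1b-/- libraries, of opposite sex, and the low depth of 1b+/- replicate 4, where 3 counts equal 1.0 CPM.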
